A study of Mus musculus with 16 samples.

Results

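The genes described here are the 137 mouse odorant receptor genes of chromosome 2 whose numbered names run from Olfr1141 upwards. They were taken by name: every Clariom S probe set of chromosome 2 with such a symbol, pseudogenes and Olfr1213 left out, 1 probe set per gene. They are 137 of 19572 measured genes and of 1080 measured odorant receptors. All 137 were found by gene ID in a RefSeq gene table, all as protein-coding genes of chromosome 2. In the order of that table they formed 2 clusters, 102 genes from Olfr1141 to Olfr1274 (with Olfr1506 and Olfr1565) and 35 genes from Olfr1275 to Olfr1318, with 119 coding genes other than receptors between them.

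Odorant receptors are G protein-coupled receptors in the cilia of olfactory sensory neurons. Each mature neuron transcribes a single receptor gene from a single allele, so in sorted tissue the RNA of a receptor follows the neurons that chose it. An odorant bound to its receptor acts through the G protein subunit Gnal and the adenylyl cyclase Adcy3, and the cAMP opens a channel that contains Cnga2. Active neurons raise the RNA of S100a5, a calcium-binding protein gene, which is the basis of the reporter strain used here.

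The olfactory mucosa of S100a5-tauGFP mice was dissociated and sorted by GFP, and RNA of both fractions was measured. The 24 animals, of both sexes and 7 to 12 weeks of age, were pooled by 3. Every mouse carried the reporter and spent 40 h alone in a chamber under clean air. From 26 h on, the mice of 4 pools received 2-octanone, an 8-carbon ketone odorant, in pulses of 10 s every 20 min, and those of the other 4 pools received filtered air as vehicle. The 4 groups, each with 4 arrays, are GFP+ cells after 2-octanone, GFP− cells after 2-octanone, GFP+ cells after vehicle and GFP− cells after vehicle. The fractions of 1 pool share their mice, and a pool is called here by its exposure and its replicate number in the labels. The RNA is that of a cell mixture, so fewer cells with a receptor and less receptor RNA per cell cannot be told apart.

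The values are array signals read as log2, and array medians lay between 7.64 and 8.01. Background probe sets averaged 5.40 to 5.61 per array. Omp, the marker of mature sensory neurons, read 17.76 to 18.45 on all 16 arrays and was not called between GFP+ and GFP− cells (0.15 ± 0.09 SE, limma adjusted p = 0.206). Of the 10 listed genes of mature sensory neurons, Omp among them, 5 were higher and 0 lower in GFP+ cells (median 0.26), against 16.7% of all genes higher. S100a5 read 16.47 to 16.98 in the GFP+ cells of replicates 1 to 3 but 13.92 in those of 2-octanone replicate 4 and 13.22 in those of vehicle replicate 4. In GFP− cells it was also low in these pools, at 13.55 and 13.11, against 15.45 to 15.81 in replicates 1 to 3. Its difference between the fractions was not called in the fit without pairing (0.83 ± 0.60, limma adjusted p = 0.304). Within each pool, though, S100a5 read higher in GFP+ than in GFP− cells. The gap was smallest in the replicate 4 pools, 13.92 against 13.55 after 2-octanone and 13.22 against 13.11 after vehicle. The Y-linked gene Eif2s3y lay between 3.48 and 5.31 in both replicate 1 pools and between 11.05 and 12.63 in all others. Genes of cells other than mature neurons differed between the fractions: 8 of 8 neutrophil genes were lower in GFP+ cells (median −7.10), and 7 of 8 genes of immature sensory neurons (median −2.43), against 14% of all genes lower. Lower too were 2 of 3 precursor genes, 3 of 3 genes of dividing cells and 3 of 3 of microvillar cells. So were 2 of 4 of macrophages (Tyrobp and Adgre1) and 2 of 5 of sustentacular cells (Krt18 and Krt8). The rest of those lists, C1qa (−0.12), C1qb (−0.28), Cyp2g1 (−0.11), Cyp2a5 (−0.20) and Ermn (0.04), were not called. In all these lists 0 genes were higher. The mean signal of the immature list was 9.75 to 10.23 in GFP+ cells and 11.38 to 12.68 in GFP− cells. Olfr1506 and Olfr1565 had identical values on every array, so the 137 receptors are 136 distinct measurements.

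Some of the receptors are close relatives, and their first coding bases show it. RefSeq (GRCm38.p6) gave a window around the gene start for 122 of the 137, and 91 of these windows had the start codon at the annotated start. The first 50 coding bases of the following 3 neighbouring genes are shown because the 3 differ in how they sorted (capitals mark positions at which the 3 are not all alike, 2 of 50). They lie on the plus strand at chr2:89993395-89993444, chr2:90002408-90002457 and chr2:90014932-90014981.
Olfr1261: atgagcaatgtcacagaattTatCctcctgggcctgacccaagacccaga
Olfr1262: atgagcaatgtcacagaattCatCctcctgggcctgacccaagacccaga
Olfr1263: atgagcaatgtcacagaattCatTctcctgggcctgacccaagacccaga

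In the second cluster, the 3 genes printed next share 45 of 50 bases, and 1 of them sorted opposite to the other two. They lie on the minus strand at chr2:111538238-111538287, chr2:111622023-111622072 and chr2:111645946-111645995 (capitals again mark positions not shared by the 3).
Olfr1294: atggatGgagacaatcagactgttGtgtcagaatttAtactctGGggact
Olfr1297: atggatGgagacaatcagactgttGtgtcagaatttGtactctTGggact
Olfr1298: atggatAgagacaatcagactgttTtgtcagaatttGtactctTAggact

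A pair that sorted alike, on the minus strand at chr2:89657390-89657439 and chr2:89722060-89722109, differs at 2 of the 50 positions, in capitals.
Olfr1250: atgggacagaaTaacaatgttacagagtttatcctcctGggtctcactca
Olfr1252: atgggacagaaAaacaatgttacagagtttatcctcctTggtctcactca

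Setting GFP+ against GFP− cells asks which receptors mark neurons with an active reporter. Over both exposures 56 of the 137 receptors were higher and 44 were lower in GFP+ cells (limma, adjusted p under 0.05 over all genes). That is 73.0% of the receptors, against 30.7% of all genes called, 16.7% higher and 14% lower. Of the 144 other receptors of chromosome 2, 76 were higher and 35 lower, and of the 943 receptors outside the list 428 were higher and 236 lower. The median difference was 0.15 in the 137 receptors, 0.87 in the other chromosome 2 receptors, 0.41 in the 943 and 0.13 in all genes, on the log2 scale on which 1 is a 2-fold difference. Differences ran from −5.61 to 3.39, with 9 receptors over 2 log2 units higher and 19 over 2 units lower. Without both replicate 1 pools the receptors counted 54 higher and 33 lower, and without both replicate 4 pools 51 and 47. With each array centred on its median they counted 65 and 38, while the median of all genes moved to 0.41, so a difference near 0 has no settled sign. That centring called 77.4% of all genes, against 30.7% without it. The receptors were then not called more often than all genes, so that contrast depended on the scaling.

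Within exposures, 35 receptors were higher and 28 lower after 2-octanone (15.1% of all genes called, 5.29% higher and 9.8% lower). After vehicle 43 were higher and 31 lower (18.6% of all genes called, 7.54% higher and 11% lower). All 3 tests called 34 receptors higher and 27 lower, against 3.26% and 8.97% of all genes. The test over both exposures averages the other 2 on the same arrays, so it adds no independent evidence to them. The sort differences after 2-octanone and after vehicle, which share no arrays, correlated across the 137 receptors at r = 0.971 (rho = 0.964), although receptors are no independent replicates of each other. For 126 the sign was shared and for 11 it was opposite, and among these 11 no difference exceeded 0.56 in size. The first cluster held 42 higher and 32 lower of 102 receptors (median 0.23), and the second 14 and 12 of 35 (median −0.12).

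**Figure D1:**
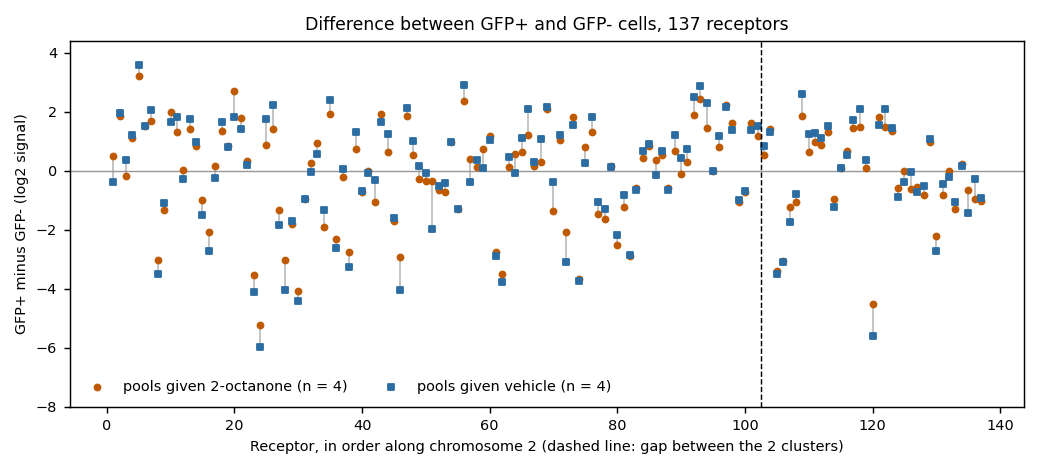
The horizontal axis gives the 137 receptors in their order along chromosome 2, and the vertical axis the mean GFP+ minus GFP− difference in log2 signal after 2-octanone (circles, n = 4 pools) and after vehicle (squares, n = 4 pools), joined by a line for each receptor. Receptors higher and lower in GFP+ cells lie in both clusters, and the values after both exposures lie near each other, with 126 of 137 on the same side of 0.

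Of the receptors lower in GFP+ cells, Olfr1178 differed most. It read 6.16, 6.70, 7.60 and 8.26 in GFP+ cells after 2-octanone, against 12.61, 12.40, 12.54 and 12.13 in GFP− cells of the same pools (replicates 1 to 4). After vehicle it read 5.03, 6.88, 6.41 and 7.00 in GFP+ cells, against 12.23, 13.02, 11.95 and 12.02 in GFP− cells. The fractions did not overlap in either exposure, and the difference over both was −5.61 ± 0.31 (SE, adjusted p = 1.2e-09, limma). The mean in GFP+ cells after vehicle, 6.33, lay less than 1 log2 unit above the background mean of 5.51, which is near background.

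Olfr1297, 1 of the 3 relatives of the second cluster printed above, came next. It read 8.49, 10.05, 10.04 and 11.35 in GFP+ cells after 2-octanone, against 14.38, 14.47, 14.71 and 14.48 in GFP− cells of those pools. Vehicle pools gave 7.90, 10.32, 8.64 and 9.53 in GFP+ cells, against 14.63, 14.71, 14.68 and 14.84 in GFP− cells. GFP+ values spread (SD 1.17 after 2-octanone and 1.05 after vehicle, n = 4 each), while GFP− values were tight (SD 0.14 and 0.09). The difference was −5.07 ± 0.35 (limma adjusted p = 9.3e-09). Its relatives went the other way: Olfr1294 was higher in GFP+ cells by 1.78 ± 0.19 (limma adjusted p = 2.0e-06) and Olfr1298 by 1.67 ± 0.33 (limma adjusted p = 0.00107).

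Olfr1184 read 6.88, 7.39, 7.55 and 6.53 in GFP+ cells after 2-octanone, against 11.27, 11.49, 11.73 and 10.26 in GFP− cells. Vehicle pools gave 6.75, 7.73, 6.26 and 6.24 in GFP+ cells, against 11.08, 11.25, 11.27 and 11.02 in GFP− cells. The difference of −4.25 ± 0.24 was thus larger than the spread in any group, and no array of GFP+ cells reached the GFP− range. Olfr1176 (−3.81 ± 0.54) spread more, from 6.96 to 11.12 in GFP+ cells and from 11.91 to 13.72 in GFP− cells. Its lowest GFP+ values, 7.44 after 2-octanone and 6.96 after vehicle, both came from the replicate 1 pools.

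The other 4 receptors that led the lower side were separated in all 8 pools. Olfr1243 differed by −3.71 ± 0.20, with 7.74 to 9.46 in GFP+ cells and 11.89 to 12.61 in GFP− cells. Olfr1228 differed by −3.64 ± 0.22, with 9.92 to 11.20 against 13.49 to 14.85. For Olfr1182, at −3.55 ± 0.30, GFP+ cells held 7.01 to 8.31 and GFP− cells 9.19 to 12.14. For Olfr1208, at −3.48 ± 0.26, the ranges were 6.40 to 8.92 in GFP+ and 10.34 to 11.41 in GFP− cells. The largest limma adjusted p among these 8 receptors was 3.6e-05, that of Olfr1176.

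On the higher side Olfr1151 led. It read 12.77, 12.20, 12.20 and 10.72 in GFP+ cells after 2-octanone, against 9.26, 9.17, 8.96 and 7.69 in GFP− cells. After vehicle it read 12.75, 12.26, 12.86 and 10.59 in GFP+ cells, against 8.996, 9.52, 9.25 and 6.38 in GFP− cells. Replicate 4 was lowest in every group, in both fractions, but even its GFP+ values lay above all GFP− values. The difference was 3.39 ± 0.46 (limma adjusted p = 2.4e-05).

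Olfr1263 and Olfr1262, neighbours whose coding starts are printed above, were both higher in GFP+ cells. Olfr1263 read 13.80, 13.94, 13.83 and 13.10 in GFP+ cells after 2-octanone against 12.27, 10.74, 11.47 and 10.56 in GFP− cells, and 13.87, 14.30, 14.09 and 13.26 against 11.57, 11.88, 11.12 and 9.48 after vehicle. The fractions did not overlap, and the difference was 2.64 ± 0.32 (limma adjusted p = 6.0e-06). For Olfr1262 the GFP+ arrays lay between 14.13 and 14.94 and the GFP− arrays between 11.11 and 13.30 (2.19 ± 0.22). Olfr1261, the third of the trio, was not called (0.50 ± 0.36, limma adjusted p = 0.300).

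Olfr1220 read 15.54, 15.36, 15.05 and 15.29 in GFP+ cells after 2-octanone, against 13.30, 12.73, 12.52 and 13.26 in GFP− cells. After vehicle both fractions of replicates 3 and 4 were dimmer: GFP+ cells read 15.52, 15.62, 14.02 and 12.79, against GFP− cells at 12.69, 12.73, 11.37 and 9.51. The difference was 2.64 ± 0.45 (limma adjusted p = 0.000249), and GFP+ exceeded GFP− cells within each pool although the GFP+ value of vehicle replicate 4 lay inside the range of GFP− arrays. Olfr1281 differed by 2.21 ± 0.20, with 13.35 to 14.18 in GFP+ and 10.44 to 12.34 in GFP− cells. Olfr1195 differed by 2.16 ± 0.23, with 12.61 to 13.28 against 9.24 to 11.44. Olfr1168 (2.25 ± 0.41) and Olfr1270 (2.18 ± 0.43) also spread among pools, with GFP+ ranges of 9.14 to 11.42 and 9.75 to 12.15 and GFP− ranges of 6.17 to 9.02 and 7.75 to 10.19. The largest limma adjusted p among these 8 was 0.000845, that of Olfr1270.

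**Figure D2:**
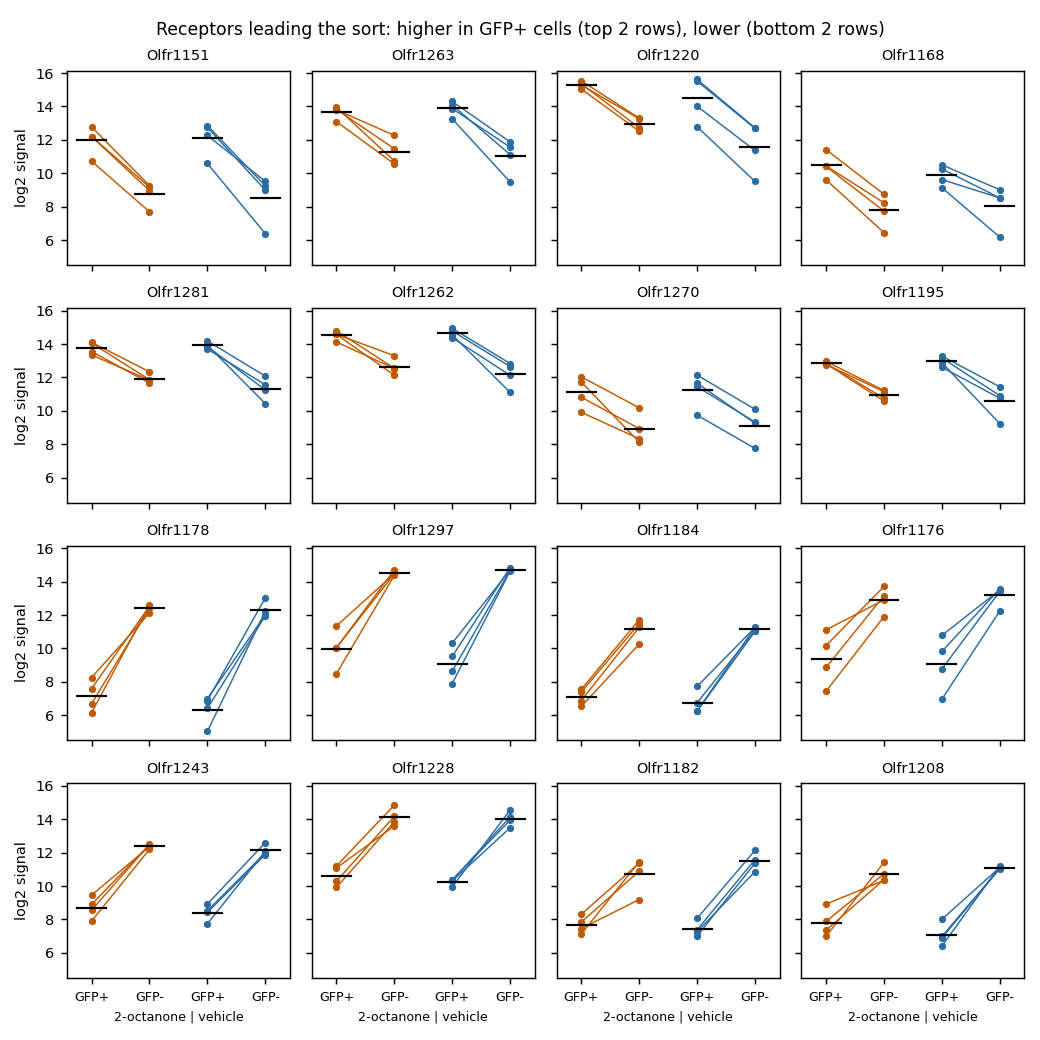
Each panel shows the log2 signal of 1 receptor on all 16 arrays, with GFP+ and GFP− cells of the pools given 2-octanone at left (orange) and of the pools given vehicle at right (blue). Thin lines join both fractions of a pool and black bars are group means (n = 4). In the top 2 rows, from Olfr1151 to Olfr1195, every line falls to the right, and in the bottom 2 rows, from Olfr1178 to Olfr1208, every line climbs.

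Receptors called in the same direction often stood side by side. The longest runs of neighbours called alike were of 5 genes: Olfr1181 (−1.61), Olfr1182, Olfr1183 (−1.77), Olfr1184 and Olfr1186 (−0.96) were all lower in GFP+ cells, and Olfr1281, Olfr1282 (0.93), Olfr1283 (1.12), Olfr1284 (0.98) and Olfr1286 (1.41) were all higher. The higher run of the second cluster directly followed a lower run of 4, made of Olfr1277 (−3.46), Olfr1278 (−3.08), Olfr1279 and Olfr1280 (−0.94). Olfr1279 was near background in all 4 groups, so the size of its difference is not given. Further runs of 4 higher receptors were Olfr1148 (1.15), Olfr1151, Olfr1152 (1.51) and Olfr1153 (1.86), and Olfr1166 (1.49), Olfr1167 (0.81), Olfr1168 and Olfr1170 (1.59). Over the whole list 84 of 135 neighbouring pairs within a cluster had differences of the same sign (62.2%), against 50.2% of all pairs of the list. The rank correlation of neighbours was 0.16, so position along the chromosome tracked the sort difference weakly. The other chromosome 2 receptors had 85 of 143 neighbouring pairs of the same sign (59.4%, against 55.2% of all pairs). Unlike the pairs of the list, these were not limited to neighbours within a cluster. These are descriptions of 1 chromosome, and no test was made.

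Pairs alike in sequence were set side by side too. Among the 91 receptors with the start codon at the annotated start, 27 pairs shared at least 45 of their first 50 coding bases. Their sort differences lay a median of 1.75 apart, against 1.67 for all 4095 pairs, and 15 of the 27 had the same sign (55.6%, against 49.5%). Olfr1250 (−2.35 ± 0.16) and Olfr1252 (−2.88 ± 0.16) were a pair in which both were lower. Olfr1154 and Olfr1158 had the same 50 bases, but Olfr1154 differed by −3.28 while Olfr1158 was near background in all groups. Olfr1506 and Olfr1565 have identical windows over all 300 bases, and the arrays gave them identical values (1.50 for both), so RNA of 1 copy cannot be told apart from RNA of both. Counting them once, 55 receptors were higher and 44 lower.

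Most RefSeq models of these receptors begin at the start codon, and only models that span more than 1100 bases were taken to begin before the coding exon. That left 20 receptors, of which 18 had a window, 20 windows in all. The sequences before the start were searched on both strands together with the first 50 bases for TAATTA and TAATGA, letters that homeodomain factors such as Lhx2 bind, and for a palindrome bound by EBF factors. TAATTA was in 8 of 20 windows (40.0%; 7 of 19 with the identical windows of Olfr1506 and Olfr1565 counted once), against 15.4% of windows of other receptors with such models and 5.29% of all windows in the table. Over all 124 windows of the list, those of shorter models included, TAATTA was in 38 (30.6%). The matching share for all windows of other receptors was not counted, and base composition was not compared. TAATGA was in 6 of 20 (30.0%, against 33.3% and 9.78%), and the EBF palindrome was in 0 of 20 (against 0 of 156 and 0.904%). Among the 18 receptors with a window Olfr1205 had the largest difference upwards (1.79 ± 0.20) and Olfr1182 the largest downwards. Their 250 bases before the start are shown (GRCm38.p6, 5′ to 3′, TAATTA in capitals). Olfr1205 lies on the plus strand (chr2:88829507-88829756) and holds the letters once. Olfr1182 lies on the minus strand (chr2:88449122-88449371), and none of the 3 motifs is in its printed bases.
Olfr1205: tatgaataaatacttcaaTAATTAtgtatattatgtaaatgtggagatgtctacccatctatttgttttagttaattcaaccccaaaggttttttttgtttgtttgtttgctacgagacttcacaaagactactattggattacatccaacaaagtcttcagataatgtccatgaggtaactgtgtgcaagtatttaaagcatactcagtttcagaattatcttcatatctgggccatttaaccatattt
Olfr1182: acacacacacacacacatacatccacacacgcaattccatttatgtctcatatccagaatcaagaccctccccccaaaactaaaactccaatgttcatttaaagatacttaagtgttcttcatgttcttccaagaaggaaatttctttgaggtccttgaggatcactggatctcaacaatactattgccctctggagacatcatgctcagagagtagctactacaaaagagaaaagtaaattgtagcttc

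The same receptors were also described within pools, as the GFP+ minus GFP− difference of each pool. In 8 of 8 pools 44 receptors were higher in GFP+ cells (32.1%, against 13.5% of all genes) and 30 were lower (21.9%, against 12.2%), and 63 were mixed. Within-pool differences correlated between pools, with Pearson r from 0.823 to 0.945 across the 137 receptors over the 28 pairs of pools. The medians of the pools differed. The median within-pool difference was −0.50, 0.37, 0.15 and 0.52 in 2-octanone replicates 1 to 4 and −0.17, 0.21, 0.11 and 0.78 in vehicle replicates 1 to 4. The medians of all genes lay between 0.07 and 0.16 in these pools. Both replicate 1 pools were thus lowest and both replicate 4 pools highest, whatever the exposure.

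Receptor by receptor, both replicate 1 pools lay below the other 6 for 36 of the 137 receptors (26.3%) and above them for 0 (4.11% of all genes). The shares below were 13.9% in the other chromosome 2 receptors, 19.6% in the 943 receptors outside the list and 5.68% in all genes. For these 36 the mean of the replicate 1 pools minus that of the others ran from −3.11 to −0.55 (median −1.05). Both replicate 4 pools lay above the other 6 for 40 receptors (29.2%) and below them for 0 (4.59% of all genes). The shares above were 18.8%, 21.6% and 6.84% in the same 3 comparison lists. Their shift ran from 0.48 to 2.22 (median 1.15), and 12 receptors showed both patterns. Replicate 2 pools lay below for 3 receptors (4.11% of all genes) and above for 4 (3.89%), and replicate 3 pools below for 4 (3.14%) and above for 3 (2.51%). The replicate 1 pools are those with low Eif2s3y and the replicate 4 pools those with low S100a5 in both fractions. The part of these differences in the receptor values was not tested.

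The 4 receptors that varied most among pools are described next, and they do not place the shift of the other receptors in a fraction. In Olfr1216, picked by its values and also below in both replicate 1 pools, the GFP− cells of those pools were the highest. They read 14.47 and 14.42, against 13.01 to 14.17 in the others. Olfr1183 differed by −4.81, 0.00, −1.36 and −1.08 in 2-octanone replicates 1 to 4 and by −3.39, −0.15, −1.09 and −2.28 in vehicle replicates 1 to 4. Its GFP− values were much alike (10.71 to 12.05 on all 8 arrays), and it was the GFP+ cells of the replicate 1 pools that were low, at 7.24 after 2-octanone and 8.12 after vehicle, against 9.02 to 11.11 in the other 6. Over both exposures the difference was −1.77 ± 0.49 (limma adjusted p = 0.0114), and −0.99 without both replicate 1 pools (limma adjusted p = 0.0345).

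Olfr1247 varied in the same way, with −3.68, −1.27, −0.56 and −0.42 after 2-octanone and −2.93, −1.05, −0.63 and 0.40 after vehicle. Its GFP+ cells read 10.89 and 11.85 in the replicate 1 pools and 12.54 to 14.91 in the others. Olfr1193 was low in both replicate 1 pools and in 1 further pool, 2-octanone replicate 4: its differences were −3.33, −0.39, −0.61 and −3.34 after 2-octanone and −3.33, −0.88, −0.23 and −0.88 after vehicle. Olfr1215 had another order, with −1.20, 0.04, −1.07 and 0.82 after 2-octanone and −1.29, −0.64, −2.54 and −3.50 after vehicle. Its lowest values came from vehicle replicates 3 and 4. Over both exposures all were called lower in GFP+ cells: Olfr1193 differed by −1.62 (limma adjusted p = 0.0165), Olfr1247 by −1.27 (0.0379) and Olfr1215 by −1.17 (0.0215). Each of these 3 calls was lost when some pools were left out. Without both replicate 1 pools Olfr1193 differed by −1.06 (limma adjusted p = 0.128) and Olfr1247 by −0.59 (limma adjusted p = 0.200). Leaving out either replicate 1 pool alone ended both calls too, at −1.39 for Olfr1193 and −0.90 for Olfr1247 without that of 2-octanone, and −1.29 and −0.96 without that of vehicle. Olfr1247 also lost its call without 2-octanone replicate 2 (−1.30), vehicle replicate 2 (−1.27) or vehicle replicate 3 (−1.34), and Olfr1193 without both replicate 4 pools (−1.46). Olfr1215 lost it without 2-octanone replicate 3 (−1.05), vehicle replicate 3 (−1.08), vehicle replicate 4 (−0.92) or both replicate 1 pools (−1.15).

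The trio printed first parted along these pools, an example chosen after its values were seen. Olfr1261 differed by −1.67, 0.50, 1.05 and 1.25 after 2-octanone and by −1.21, 0.77, 1.28 and 2.04 after vehicle, so that it was lower in GFP+ cells in both replicate 1 pools and higher in the other 6. Its GFP+ cells read 12.21 and 12.33 in the replicate 1 pools and 13.81 to 14.47 in the others. Olfr1262 (1.28 to 3.45) and Olfr1263 (1.53 to 3.78) were higher in all 8 pools. Olfr1278 had the largest replicate 4 shift of the 40, also picked by its value: it differed by −1.67 and −1.16 in the replicate 4 pools after 2-octanone and vehicle, and by −4.69 to −2.90 in the other 6.

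**Figure D3:**
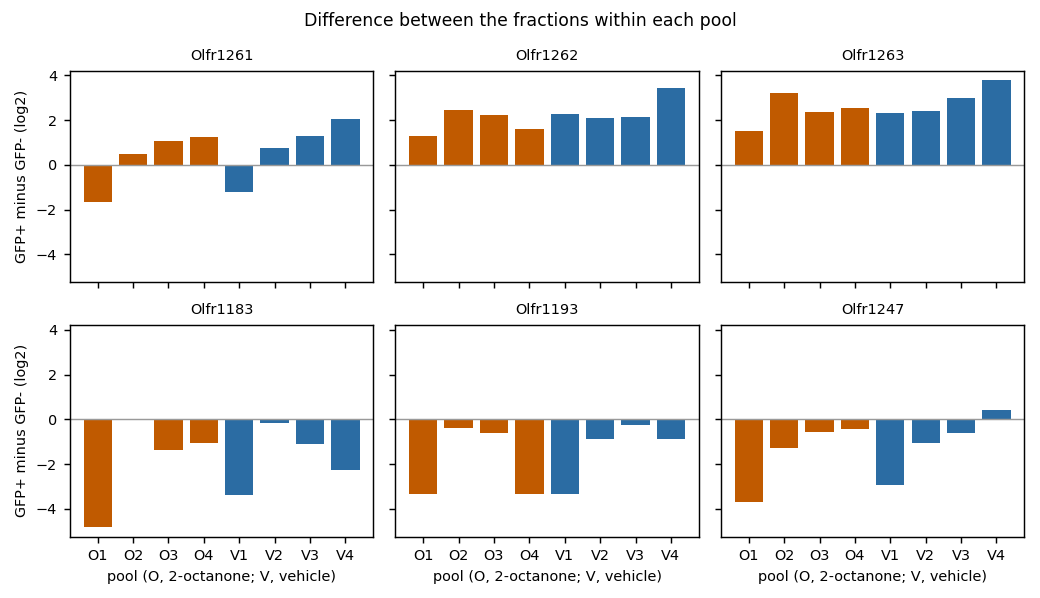
Bars give the GFP+ minus GFP− difference in log2 signal within each of the 8 pools, O1 to O4 given 2-octanone (orange) and V1 to V4 given vehicle (blue), for 6 receptors. O1 and V1 are the lowest bars of Olfr1261, Olfr1183 and Olfr1247 in their exposure, while all bars of Olfr1262 and Olfr1263 are positive.

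The comparison of 2-octanone with vehicle asks which receptors changed their RNA in a fraction with the odorant. In GFP+ cells 0 of the 137 receptors were called by limma, as were 0% of all genes. At an unadjusted p under 0.05 there were 10 receptors, against 618 of all genes (3.16%). The median difference was −0.08, with 55 receptors positive and 82 negative. Differences ran from −2.48 to 1.27, much narrower than in the sort. The values below are therefore descriptions of receptors that did not pass the test.

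Olfr1202 had the smallest p. It read 8.62, 10.32, 9.39 and 6.51 in GFP+ cells after 2-octanone, against 10.30, 10.97, 11.15 and 12.37 after vehicle, a difference of −2.48 ± 0.63 (limma adjusted p = 1.00). The groups overlapped, since 2-octanone replicate 2 (10.32) lay just above vehicle replicate 1 (10.30). Without 2-octanone replicate 4 the difference was −1.75, and without both replicate 4 pools −1.36. In GFP− cells it read 10.47, 9.74, 10.27 and 8.68 after 2-octanone, against 11.20, 11.05, 11.69 and 12.08 after vehicle (−1.71 ± 0.63), with no overlap. Neither fraction passed the test, and 2-octanone replicate 4 was the lowest array of each.

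Other receptors were low in 2-octanone replicate 4 as well. Olfr1204 read 9.14, 10.41, 10.43 and 7.15 in GFP+ cells after 2-octanone, against 9.48, 10.97, 11.25 and 12.34 after vehicle (−1.73 ± 0.68), and the difference was −1.02 without 2-octanone replicate 4 and −0.57 without both replicate 4 pools. Olfr1239 read 7.96, 9.22, 8.06 and 6.85 against 8.44, 9.53, 9.57 and 10.70 (−1.54 ± 0.52), and −0.77 without those pools. Olfr1206, picked by its values, read 9.25, 10.41, 10.43 and 7.19 after 2-octanone, against 10.02, 10.34, 9.99 and 11.57 after vehicle (−1.16 ± 0.66). In each of these receptors vehicle replicate 4 was the highest GFP+ array, and the groups overlapped. Averaged over the 8 neutrophil genes, the signal in GFP+ cells was 7.26, 7.43, 10.22 and 13.17 after 2-octanone, against 7.32, 7.48, 6.86 and 8.67 after vehicle, highest in 2-octanone replicate 4, and its part in these values was not tested.

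On the positive side Olfr1221 read 9.29, 9.64, 9.83 and 10.93 in GFP+ cells after 2-octanone, against 9.72, 9.92, 8.33 and 6.63 after vehicle (1.27 ± 0.53). The groups overlapped, and the difference was 0.60 without vehicle replicate 4 and 0.27 without both replicate 4 pools. Olfr1256 read 11.69, 11.72, 11.11 and 12.26 after 2-octanone, against 10.95, 11.58, 10.42 and 10.37 after vehicle (0.86 ± 0.30). It overlapped too, and was 0.52 without those pools. Olfr1198 (0.64, and 0.35 without vehicle replicate 1) and Olfr1234 (−0.68) had smaller differences, and Olfr1230 was near background in all groups.

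**Figure D4:**
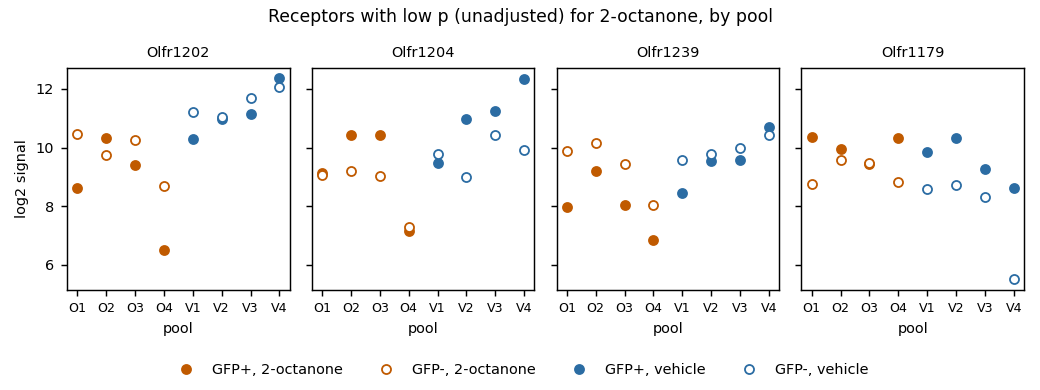
Log2 signal of 4 receptors in GFP+ cells (filled) and GFP− cells (open) of the pools given 2-octanone (O1 to O4, orange) and vehicle (V1 to V4, blue). For Olfr1202, Olfr1204 and Olfr1239 both fractions of O4 are the lowest of the 2-octanone pools, and for Olfr1179 the GFP− cells of V4 are the lowest of all.

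In GFP− cells 0 of the 137 receptors were called, against 0.00511% of all genes, and 11 had an unadjusted p under 0.05 (477 of all genes, 2.44%). The median was −0.03, and differences ran from −1.71 to 1.38. Olfr1179 read 8.77, 9.58, 9.46 and 8.84 after 2-octanone, against 8.57, 8.72, 8.32 and 5.50 after vehicle (1.38 ± 0.55), and 0.62 without vehicle replicate 4. Olfr1241 read 10.78, 10.60, 10.77 and 8.21 after 2-octanone, against 10.97, 11.18, 11.62 and 11.41 after vehicle (−1.20 ± 0.51), and −0.58 without 2-octanone replicate 4. Each thus rested largely on 1 array. Olfr1232 had 10.98, 10.17, 10.59 and 10.70 after 2-octanone, against 10.36, 10.01, 9.87 and 9.57 after vehicle (0.66 ± 0.22), and the groups overlapped in 1 array each. Olfr1310 differed by −0.85 ± 0.29, Olfr1199 by 0.41, Olfr1240 by 0.41 and Olfr1189 by −0.45.

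Across the 137 receptors the differences with 2-octanone in GFP+ and GFP− cells, which come from the same pools, correlated at r = 0.471 (rho = 0.237). For 70 the sign was shared and for 67 it was opposite. The interaction term, which tests whether the GFP+/GFP− ratio changed between exposures, called 0 receptors and 0% of all genes. An unadjusted p under 0.05 was reached by 5 receptors (465 of all genes, 2.38%). The ratio of Olfr1215, whose pool differences are given above, differed by 1.64 ± 0.72 with 2-octanone, and by 0.75 without both replicate 4 pools. The ratio of Olfr1208 differed by 1.10 ± 0.53, and by 0.60 without 2-octanone replicate 4. That of Olfr1232 differed by −0.88 ± 0.31, and neither passed the test. The remaining receptors with the smallest p were Olfr1282 (−0.63), Olfr1301 (−0.62, and −0.38 without 2-octanone replicate 1) and Olfr1199 (−0.57), while Olfr1141 and Olfr1230 were near background throughout.

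**Figure D5:**
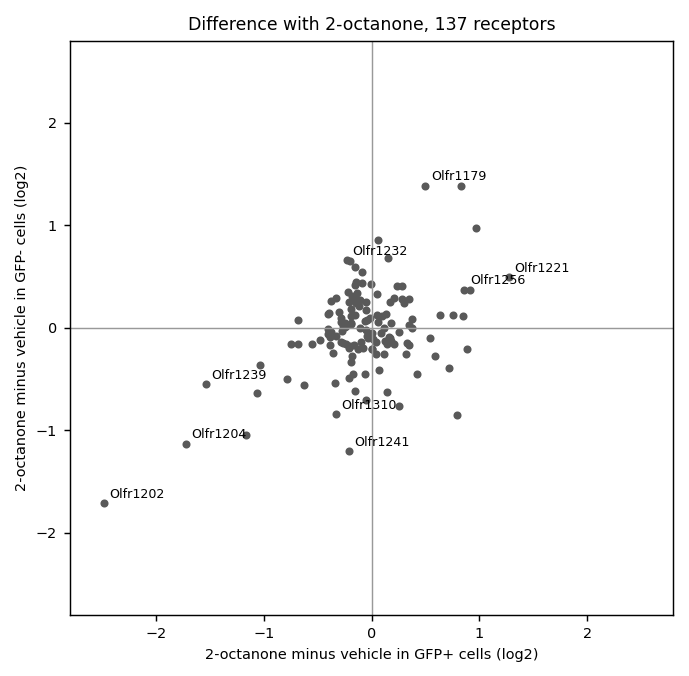
Each point is 1 of the 137 receptors, placed by its mean difference between 2-octanone and vehicle in GFP+ cells (horizontal axis, log2) and in GFP− cells (vertical axis, log2), with n = 4 pools per group. Most points lie near 0 in both fractions, and Olfr1202 lies farthest out, at −2.48 and −1.71.

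Of 20 listed genes of odorant signalling and receptor trafficking 18 were measured, and in the sort 10 were higher and 1 was lower in GFP+ cells (median 0.33), against 16.7% of all genes higher and 14% lower. Those higher included the phosphodiesterase gene Pde1c (0.72), the chloride channel gene Ano2 (0.53), the receptor transport gene Rtp2 (0.45) and Adcy3 (0.37). Most genes of the mature neuron list are also in this list, Adcy3, Cnga2, Cngb1 and Ano2 among them, so those counts overlap. The receptor kinase gene Grk3 was lower (−0.75). Of 18 genes of receptor choice 0 were higher and 3 lower, a share called below that of all genes (30.7%). The 3 were Lbr, which encodes a lamin receptor of the nuclear envelope (−1.85), the heterochromatin protein gene Cbx5 (−0.34) and the transcription factor gene Nfia (−0.33). Genes of neutrophils, dividing cells and immature neurons were lower in GFP+ cells too, and the part of the cell mixture in these values was not tested. The homeodomain factor gene Lhx2 (−0.05) and Ebf1 (0.20) were not called. None of the genes of the signalling and receptor choice lists was called between 2-octanone and vehicle in either fraction.

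A receptor was taken as near background where its group mean was under 1 log2 unit above the background mean. Olfr1141, Olfr1145, Olfr1158, Olfr1164, Olfr1188, Olfr1230, Olfr1279 and Olfr1314 were near background in all 4 groups, so 129 receptors were above it in at least 1 group. Of these 8, limma called only Olfr1279, which is among the 44 lower receptors. At the limit of the list, Olfr1140, Olfr1138 and Olfr1137 just outside it differed by −4.83, 1.62 and −2.13 in the sort. Just inside, Olfr1143 differed by 1.89, and Olfr1141 and Olfr1145 are among the 8 near background.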

How the data were processed

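The deposited table holds 1 normalised signal per probe set and array, made by the authors with Affymetrix Expression Console per the submitters' processing notes. The deposited values were read as log2 from their range; the algorithm and the log base are not given in the sources used here. Of 28846 probe sets, 19572 name 1 gene and were fitted. Each of the 137 receptors had 1 probe set, so no choice between probe sets arose.

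All 16 arrays were fitted on 4 group means by lmFit and eBayes of limma 3.58.1 (R 4.3.3), with 12 residual degrees of freedom and a prior of 4.19. Tests were two-sided, p-values were Benjamini-Hochberg adjusted over 19572 probe sets, and calls were made at 0.05. The fit was tested on simulated data with 200 changed genes. Noise was drawn independently for each array, so that test could not show how the fit handles pool or replicate effects. Values after ± are standard errors, and precision is limited by the 4 arrays per group.

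Both fractions of a pool come from the same mice. The pool as a block is an alternative, as are other normalisations, filters, variance models and left-out pools. The members and gene lists were chosen with earlier results of these data known. Named receptors are, for the sort, the 8 with the largest differences each way among those called alike in all 3 sort tests; for 2-octanone, the 4 with the smallest p each way; and the 4 that vary most among pools. Sequences are from RefSeq tables (GRCm38.p6). Coding starts stand in for the planned protein comparison, since no protein sequences were used here, and the printed examples were chosen after the values were seen.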

Additional observations from a re-analysis of the deposited data

Results flagged for a closer look

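In 152 groups of 4 arrays (38 named receptors in 4 groups) 12 arrays lay apart from the other 3 of their group by Dixon's test. The test's limit is set at 1 of 20 groups for independent groups. These receptors were picked by the same values and share the same arrays, so that rate is no measure for the 12. Of these 12, 8 belonged to replicate 4 pools. In GFP+ cells after 2-octanone Olfr1183 read 7.24 in replicate 1 (10.45 to 10.76 in the others), and Olfr1263 read 13.10 in replicate 4 (13.80 to 13.94). In GFP− cells after 2-octanone the low replicate 4 values were 7.28 for Olfr1204 (others 9.04 to 9.20), 8.21 for Olfr1241 (10.60 to 10.78) and 12.96 for Olfr1247 (14.35 to 14.59). In GFP+ cells after vehicle Olfr1198 read 7.11 in replicate 1 (8.18 to 8.34) and Olfr1228 read 9.95 in replicate 3 (10.30 to 10.37). In GFP− cells after vehicle, replicate 4 was low at 6.38 for Olfr1151 (8.996 to 9.52), 5.50 for Olfr1179 (8.32 to 8.72) and 10.13 for Olfr1256 (11.21 to 11.34). In the same array Olfr1230 was high at 5.96 (5.35 to 5.40), a value near background. Olfr1176 read 12.24 in GFP− cells of vehicle replicate 1 (13.42 to 13.58).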

How the results depend on the processing

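Over all alternatives the receptors counted 49 to 65 higher and 33 to 49 lower in the sort over both exposures, 26 to 53 and 21 to 38 after 2-octanone, and 32 to 60 and 25 to 36 after vehicle. Leaving out 1 pool at a time gave 49 to 56 higher and 36 to 46 lower over both exposures, 26 to 41 and 22 to 30 after 2-octanone, and 32 to 48 and 25 to 33 after vehicle. Only 1 count moved by over 1.5 times: 53 receptors were higher after 2-octanone, against 35, with each array centred on its median. That centring moved the median sort difference of all genes to 0.41 and of the receptors to 0.43, against 0.13 and 0.15, and the share of higher among called receptors to 63.1%, against 56%. The share of all genes called in this sort rose to 77.4%, against 30.7%, and with quantile normalisation it was 37.5%. A replicate block on the pool, pairing both fractions, gave 58 receptors higher and 46 lower over both exposures (45 and 36 after 2-octanone, 52 and 32 after vehicle), and all 100 receptors called without the block remained called. The 38 receptors named by rule kept direction in all repeats run, and kept their side of the threshold in 843. In the other 14, all with pools left out, the sort calls of Olfr1193, Olfr1247 and Olfr1215 were lost, with values from −1.46 to −0.59. Counts for 2-octanone against vehicle and for the ratio were 0 under each alternative, the replicate number as a block included. As a check of that number, residuals of same-numbered 2-octanone and vehicle arrays correlated at 0.19, 0.17, 0.26 and 0.43 in GFP+ cells, each highest with its own number, and at 0.34, −0.06, 0.35 and 0.52 in GFP− cells, where replicate 2 was not. Near background in all 4 groups were 8 receptors, of which limma called only Olfr1279.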
